A study of Mus musculus with 24 samples.

Results

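Interleukin 4 (IL-4) gives macrophages a state known as alternative activation, and 10 genes known as its effectors and markers in the mouse were followed here. They were Retnla, Chil3, Rnase2a, Mgl2, Clec10a, Mrc1, Cdh1, Il31ra, Pparg and Nfil3, found in the count files by their Ensembl gene identifiers through GENCODE M21. They make up 10 of the 43629 genes in each file. All of the libraries came from macrophages that had been differentiated for 7 days from wild-type C57BL/6 mouse marrow with CSF-1 at 20 ng/mL, a macrophage growth factor that was kept in the medium during stimulation. Cells received IL-4 at 20 ng/mL, bacterial lipopolysaccharide (LPS) together with interferon gamma (IFNg) at 50 ng/mL, or LPS alone, or were left unstimulated, and were taken at 1 h or 18 h. RNA was sequenced from 3 libraries in each of these 8 groups, 24 altogether. For LPS the labels name doses of 20 and 100 ng/mL without tying them to samples. The groups with LPS and with LPS and IFNg may thus differ in LPS dose, and no group had IFNg alone. A difference between these groups can therefore not be credited to IFNg. Whether replicates are separate mice or cultures is not stated, so the p-values cover library-to-library spread, possibly technical.

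IL-4 binds a receptor that contains the IL-4 receptor alpha chain, Janus kinases attached to the receptor then phosphorylate the transcription factor STAT6, and STAT6 enters the nucleus and binds palindromic DNA sites near its target genes. Some targets answer to STAT6 directly, while others also need factors that the first wave of transcription supplies. LPS acts through TLR4, and LPS and IFNg both drive the inflammatory state that is commonly set against the IL-4 state.

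The promoters of 8 of the 10 genes were found in a RefSeq table on GRCm38.p6, and the 300 bases from 250 before to 50 after each annotated start were searched on both strands for 4 motifs. Sites of the STAT type were found before the starts of 3 of these genes, and the 250 upstream bases of each are shown. Only that of Retnla had the STAT6 form. The capitals mark the STAT motif. The Retnla sequence lies at chr16:48842359-48842608 on the plus strand, that of Chil3 at chr3:106167565-106167814 on the minus strand and that of Il31ra at chr13:112580663-112580912 on the minus strand, each sequence running 5′ to 3′ towards the start. The RefSeq start of Retnla lies just inside the span that GENCODE M21 gives the gene, which begins at 48842551. For Il31ra the whole sequence shown lies inside the GENCODE M21 span, which on the minus strand begins at 112594360. The Il31ra sequence is thus upstream of an internal RefSeq start.
Retnla: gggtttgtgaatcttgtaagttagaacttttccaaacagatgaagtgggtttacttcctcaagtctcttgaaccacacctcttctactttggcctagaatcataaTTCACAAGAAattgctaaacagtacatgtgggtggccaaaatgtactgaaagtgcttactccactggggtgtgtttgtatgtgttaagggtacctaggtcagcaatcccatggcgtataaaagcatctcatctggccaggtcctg
Chil3: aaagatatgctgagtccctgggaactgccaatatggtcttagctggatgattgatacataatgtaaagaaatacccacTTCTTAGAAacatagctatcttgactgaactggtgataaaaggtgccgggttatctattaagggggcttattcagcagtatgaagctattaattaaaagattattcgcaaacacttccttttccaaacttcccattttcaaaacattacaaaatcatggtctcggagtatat
Il31ra: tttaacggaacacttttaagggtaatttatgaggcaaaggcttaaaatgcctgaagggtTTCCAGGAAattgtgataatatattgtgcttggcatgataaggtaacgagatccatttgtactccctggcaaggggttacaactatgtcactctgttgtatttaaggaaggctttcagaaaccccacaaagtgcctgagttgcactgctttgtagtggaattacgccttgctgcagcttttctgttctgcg
The Retnla promoter held TTCACAAGAA, a match to the STAT6 motif TTCNNNNGAA, at -145 to -136 from the start. The Chil3 promoter held TTCTTAGAA at -172 to -164, and that of Il31ra held TTCCAGGAA at -191 to -183, both matches to the general STAT motif TTCNNNGAA. Of 32851 promoters in the table, 6.95% held TTCNNNNGAA and 8.3% held TTCNNNGAA. The C/EBP motif TTGCNNAA, present in 10.8% of all promoters, matched TTGCTAAA in Retnla at -134 to -127, next to but not overlapping the STAT site, TTGCATAA in Rnase2a at -217 to -210, and 2 places in 1 of the 3 Pparg promoters. The promoters of Mgl2, Mrc1 and Nfil3 held none of the 4 motifs in this window, which also included TTANGTAA, bound by NFIL3 itself and present in 2.32% of promoters. These matches describe letters and are not evidence of binding.

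Levels are given in CPM, counts scaled to library size, with TMM factors that set the bulk of genes to no change. Total counts per library ran from 4181890 to 8122945, so that 3 counts over a group, taken as the floor for a gene with none, correspond to 0.132 to 0.224 CPM. At 18 h IL-4 replicate 3 and unstimulated replicate 3 had reads in 17808 and 19108 genes, more than the other libraries (15450 to 16775), and with both left out all 10 genes were still called higher with IL-4 at 18 h. Replicate 2 of LPS at 18 h differed most from its fellows (chi-square per gene 9.28 and 11.9, against 1.62 to 7.28 for all other pairs of replicates), and without it no call for the 10 genes was lost or gained. Floors and the 95% intervals of count ratios cover counting error only. Fold changes are log2 values ± SE (n = 3 libraries a group) from edgeR's quasi-likelihood test, and adjusted p-values are Benjamini-Hochberg over all 12765 genes tested. All 10 genes passed the filter on low counts, but Retnla, Rnase2a, Mgl2, Cdh1 and Il31ra reached its 1.71 CPM throughout a group in IL-4 groups alone. These 5 could only be tested because of their level with IL-4, so counts that include them, and their own fold changes and p-values for IL-4, are given as descriptions and support nothing. The other 5 reached that level in at least 6 of the 8 groups. In bulk libraries, fewer cells that make a transcript and less of it per cell cannot be told apart.

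The cells carried macrophage transcripts throughout. All 8 macrophage markers, among them Adgre1, Csf1r and Cd68, had reads in every group, with a summed level of 10188 to 10621 CPM in IL-4 libraries at 18 h and 14636 to 16437 CPM in unstimulated libraries at 18 h. Rnase2a and Chil3 are also known from eosinophils, so 6 eosinophil markers were summed: they reached 43.6 to 54.8 CPM in IL-4 libraries and 29.0 to 36.9 CPM in unstimulated libraries at 18 h, most of it from Ccr3. Of these markers Il5ra had no read in the IL-4 libraries at 18 h, and Epx, the eosinophil peroxidase that defines the type, averaged 0.181 CPM or less in every group. The eosinophil sum at 18 h was 38.5 to 67.6 CPM with LPS, and 3.57 to 3.98 CPM with LPS and IFNg, the lowest of all groups. Epithelial markers, relevant to Cdh1, summed to 1.10 CPM or less in every library. Dendritic cell markers, relevant to the lectins, stood at 6.10 to 7.63 CPM with IL-4 and 3.21 to 4.47 CPM without it at 18 h, and were highest with LPS and IFNg at 18 h (37.1 to 55.1 CPM). Neutrophil markers at 18 h summed to 85.7 to 110 CPM with IL-4, 81.7 to 113 CPM without stimulus and 79.2 to 102 CPM with LPS. They were lowest with LPS and IFNg at 18 h (16.5 to 26.7 CPM), where Chil3 was lowest too. Whether such cells had a part in the results was not tested.

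After 18 h of IL-4 all 10 genes were higher than in unstimulated cells, where 19% of all tested genes were called higher and 39.2% were called in either direction. They include the 5 genes that the filter kept through other groups as well, while the rise of the remaining 5 was fixed by the filter. After 1 h, 7 of the 10 were higher and none lower, against 3.22% of all genes called higher and 6.49% called in either direction; the same 5 were among the 7. The 3 not called at 1 h were Retnla, Rnase2a and Il31ra. Each stimulus was set against the same unstimulated libraries of its time, so the comparisons with unstimulated cells are not independent of each other. The 10 genes were also chosen with earlier results of these data known, so these counts are descriptions.

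**Figure D1:**
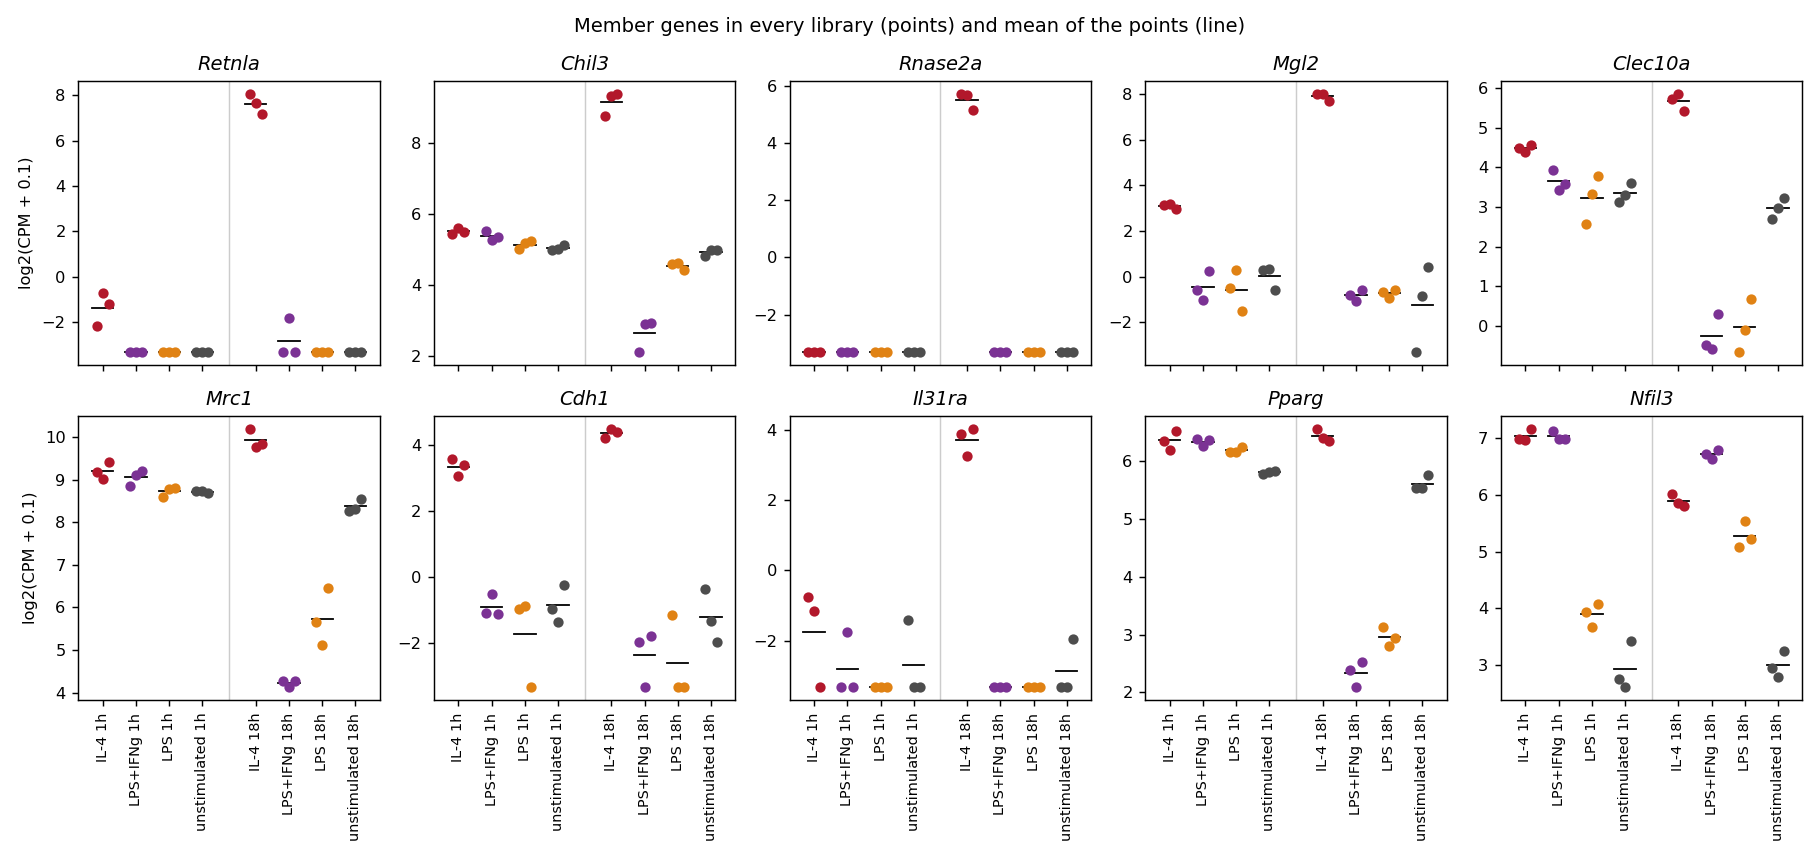
Level of each gene in every library as log2(CPM + 0.1) on the vertical axis, with groups along the horizontal axis at 1 h and then 18 h; points are libraries and lines are means of the points. IL-4 libraries at 18 h stand above all others for 8 of the genes, while Pparg is level between the IL-4 times and Nfil3 peaks at 1 h in IL-4 and LPS+IFNg libraries.

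Retnla encodes RELM alpha, a small secreted protein that is a standard marker of alternative activation in the mouse (GRCm38 chromosome 16, 48842551 to 48844461, plus strand). It had 265, 202 and 144 CPM in the IL-4 libraries at 18 h, against 0 counts in the 3 unstimulated libraries. All 3 IL-4 libraries were high, replicate 3 the least so, and the groups did not overlap. Of 4685 reads in the whole series 4678, or 99.9%, came from these 3 libraries. The level was at least 1303-fold higher with IL-4 than without (edgeR adjusted p = 2.31e-14). After 1 h of IL-4 only 6 counts were found over the 3 libraries (0.12, 0.52 and 0.33 CPM), against 0 counts without IL-4, and this was not called (edgeR adjusted p = 0.447). A direct comparison of IL-4 at 18 h with IL-4 at 1 h, chosen after the data had been seen, gave a log2 fold change of 9.31 ± 0.91 (edgeR adjusted p = 3.36e-14). LPS with IFNg gave 1 count at 18 h, and no read was found with LPS.

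Chil3 encodes Ym1, a secreted chitinase-like lectin that has lost the enzyme's activity (chromosome 3, 106147554 to 106167564, minus strand). Its level was 438, 654 and 675 CPM in the IL-4 libraries at 18 h, against 28.2, 31.9 and 31.9 CPM in unstimulated libraries. Every IL-4 library was far above every unstimulated one, and the log2 fold change was 4.26 ± 0.13 (edgeR adjusted p = 9.93e-21). Unlike Retnla, Chil3 was already present in resting cells. At 1 h it had 43.7, 48.6 and 45.6 CPM with IL-4 and 32.03, 32.6 and 35.2 CPM without. These groups did not overlap either, and the small difference was called (0.47 ± 0.14, edgeR adjusted p = 0.0339), but the call was lost when any 1 of the 6 libraries was left out (0.43 to 0.51, adjusted p from 0.0522 to 0.141). Between 1 h and 18 h of IL-4 the level rose by 3.68 ± 0.12 in direct comparison (edgeR adjusted p = 1.47e-19). Part of the Chil3 transcript is shared with relatives: 26.9% of its 1629 windows of 50 exonic bases occur in Chil4 or Gm6522. Chil4 held 67 reads in all libraries together, and how the authors treated reads with several alignments is not given in the sources used here.

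Rnase2a encodes a secreted ribonuclease of the eosinophil-associated family of rodents (chromosome 14, 51255262 to 51256112, minus strand). All of its 1061 reads came from the IL-4 libraries at 18 h, where it had 52.2, 50.5 and 35.2 CPM, against 0 counts in unstimulated libraries. The gene was silent at this depth in the other 7 groups, IL-4 at 1 h included. It was at least 296-fold higher with IL-4 at 18 h (edgeR adjusted p = 5.76e-11).

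Mgl2 and Clec10a are neighbouring genes on chromosome 11 (70130329 to 70137550 and 70156197 to 70170834, both on the plus strand) that encode CD301b and CD301a, the galactose-binding C-type lectins of macrophages and dendritic cells. At 18 h Mgl2 stood at 255, 255 and 209 CPM with IL-4, against 0, 0.45 and 1.25 CPM without. It was near the limit of detection in all libraries without IL-4 and high in all with it, a log2 fold change of 8.65 ± 0.47 (edgeR adjusted p = 3.49e-23). Already at 1 h it had 8.75, 8.95 and 7.62 CPM with IL-4, against 1.10, 1.17 and 0.56 CPM without, so the IL-4 libraries were apart within the first hour (3.08 ± 0.38, edgeR adjusted p = 6.72e-09). The response grew by 5.56 ± 0.61 between the times, tested as an interaction (edgeR adjusted p = 1.18e-07).

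Clec10a, unlike its neighbour, was well above the floor in resting cells. The libraries read 52.3, 57.5 and 42.7 CPM with IL-4 at 18 h, against 6.43, 7.74 and 9.24 CPM in unstimulated libraries (2.70 ± 0.19, edgeR adjusted p = 1.76e-13). At 1 h the level was 22.3, 20.8 and 23.4 CPM with IL-4 and 8.70, 9.83 and 12.0 CPM without (1.14 ± 0.18, edgeR adjusted p = 3.37e-05). The IL-4 libraries lay above the unstimulated ones at both times without overlap. Of the Mgl2 windows of 50 bases, 12.2% also occur in Clec10a, and 8.49% of the Clec10a windows occur in Mgl2, and whether reads were exchanged between them by the counting was not tested.

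Mrc1 encodes the mannose receptor CD206, a scavenger lectin of resting tissue macrophages (chromosome 2, 14229392 to 14332057, plus strand). It was abundant before any stimulus. At 18 h it had 1177, 868 and 918 CPM with IL-4, against 306, 316 and 376 CPM without, all IL-4 libraries being higher (1.57 ± 0.16, edgeR adjusted p = 3.39e-09). The 1 h libraries held 577, 521 and 684 CPM with IL-4 and 423, 424 and 411 CPM without, again without overlap (0.50 ± 0.16, edgeR adjusted p = 0.049). That early call was lost without any 1 of the unstimulated libraries or IL-4 replicates 1 or 3 (0.39 to 0.52, adjusted p from 0.102 to 0.28), and was kept without IL-4 replicate 2. It was also lost with DESeq2 (0.51, DESeq2 adjusted p = 0.251) and with scaling by library size alone (0.51, edgeR adjusted p = 0.0552).

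Cdh1 encodes E-cadherin, the adhesion molecule of epithelia, which IL-4 is known to induce in mouse macrophages (chromosome 8, 106603351 to 106670246, plus strand). It had 18.3, 22.3 and 20.9 CPM with IL-4 at 18 h, against 0.68, 0.30 and 0.16 CPM without, and 11.7, 8.09 and 10.3 CPM with IL-4 at 1 h, against 0.41, 0.29 and 0.75 CPM without. Only IL-4 libraries exceeded 0.75 CPM at either time. The log2 fold change was 5.72 ± 0.56 at 18 h (edgeR adjusted p = 4.17e-15) and 4.39 ± 0.50 at 1 h (edgeR adjusted p = 2.88e-11). With IL-4 the mean was 20.5 CPM at 18 h and 10.0 CPM at 1 h, a direct difference of 1.02 ± 0.17 (edgeR adjusted p = 9.97e-06), whereas the interaction with time, which rests on few unstimulated reads, was not called (1.34 ± 0.75, adjusted p = 0.221). Of 7 tested genes of the catenin and vinculin complex at E-cadherin none was called with IL-4 at 18 h (median 0.01, with 39.2% of all genes called). At 1 h none rose and 2 fell (6.49% of all genes called), Jup, which encodes plakoglobin (-0.44), and Vcl, vinculin (-0.40). In the same list 6 fell with LPS and IFNg at 18 h (36.1% of all genes lower) and 5 with LPS (31.4% lower), and none rose.

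Il31ra encodes the ligand-binding chain of the receptor for interleukin 31, an itch cytokine of T helper cells (chromosome 13, 112519898 to 112594360, minus strand). It had 14.6, 9.46 and 16.3 CPM with IL-4 at 18 h, 297 counts in all, against 1 count over the unstimulated libraries. This is a 248-fold ratio of depth-scaled counts with a 95% interval of 44.2 to 9838 (edgeR adjusted p = 2.1e-10). All 3 IL-4 libraries at 18 h were high, and they held 96.7% of the 307 reads in the series. At 1 h the gene had 6 counts with IL-4 and 2 without (2.92-fold, 95% interval 0.521 to 29.5, edgeR adjusted p = 0.727). On a list of related cytokines, receptor chains, kinases and STAT factors 9 genes were tested, not all of them parts of this receptor. With IL-4 at 18 h 2 rose and 3 fell (median -0.28, with 39.2% of all genes called). At 1 h 2 rose and none fell (6.49% of all genes called). Il6st, which encodes the gp130 signalling chain of related cytokines, rose with IL-4 at 1 h (0.84 ± 0.12, edgeR adjusted p = 1.34e-05) and 18 h (1.28 ± 0.12, edgeR adjusted p = 2.15e-09). Osmr, the chain with which IL-31RA forms its receptor, had 0 to 2 counts in each group and was too low to test; it was named after its values had been seen.

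Pparg encodes PPAR gamma, a nuclear receptor for fatty acid derivatives that acts with STAT6 at IL-4 target genes (chromosome 6, 115360951 to 115490399, plus strand). Its IL-4 response was modest and was already called at 1 h. At 1 h it had 81.7, 73.4 and 92.3 CPM with IL-4, against 54.9, 56.5 and 57.2 CPM without (0.55 ± 0.09, edgeR adjusted p = 2.46e-05). At 18 h it had 94.7, 84.3 and 81.6 CPM with IL-4, against 46.2, 46.2 and 54.3 CPM without (0.83 ± 0.09, edgeR adjusted p = 6.18e-09). The groups did not overlap at either time. Between IL-4 at 18 h and at 1 h the difference was 0.07 ± 0.08 (edgeR adjusted p = 0.495), with overlapping libraries. The interaction with time was not called, but 3 of 21 alternatives called the response larger at 18 h. Without unstimulated replicate 3 at 18 h it was 0.36 (edgeR adjusted p = 0.0484). Without IL-4 replicate 3 at 1 h it was 0.36 (edgeR adjusted p = 0.0385). Without unstimulated and IL-4 replicate 3 at 18 h together it was 0.40 (edgeR adjusted p = 0.0394). Among 10 tested genes of a PPAR gamma target list, 3 rose with IL-4 at 18 h and none fell (39.2% of all genes called): Fabp4, a fatty acid carrier (0.95), the cholesterol exporter gene Abcg1 (0.89) and the scavenger receptor gene Cd36 (0.87). At 1 h 1 rose, Abcg1 (0.34), and 1 fell, Angptl4 (-0.86), with 6.49% of all genes called.

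Nfil3 encodes a basic leucine zipper repressor, also called E4BP4, that takes part in lymphoid development and in the circadian clock (chromosome 13, 52967209 to 52981073, minus strand). It was the only one of the 10 genes that fell between 1 h and 18 h of IL-4. After 1 h the level was 127, 124 and 144 CPM with IL-4, against 6.63, 6.02 and 10.7 CPM without (4.12 ± 0.16, edgeR adjusted p = 2.65e-19). At 18 h it had 64.5, 57.9 and 55.7 CPM with IL-4, against 7.61, 6.85 and 9.39 CPM without (2.90 ± 0.16, edgeR adjusted p = 8.28e-16). Every IL-4 library at 18 h was below every one at 1 h and above all unstimulated libraries. The later level was lower by a log2 difference of -1.15 ± 0.10 (edgeR adjusted p = 3.92e-10), and the interaction was -1.22 ± 0.23 (edgeR adjusted p = 0.000171). Of 13 tested clock and partner genes 2 rose and 7 fell with IL-4 at 18 h (median -0.27; 39.2% of all genes called), led by Bhlhe40, a repressor that shares E-box sites with the clock (2.60), Per3 (-0.94) and Rora (-0.85). At 1 h only Per1 was called (-0.48, with 6.49% of all genes called).

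**Figure D2:**
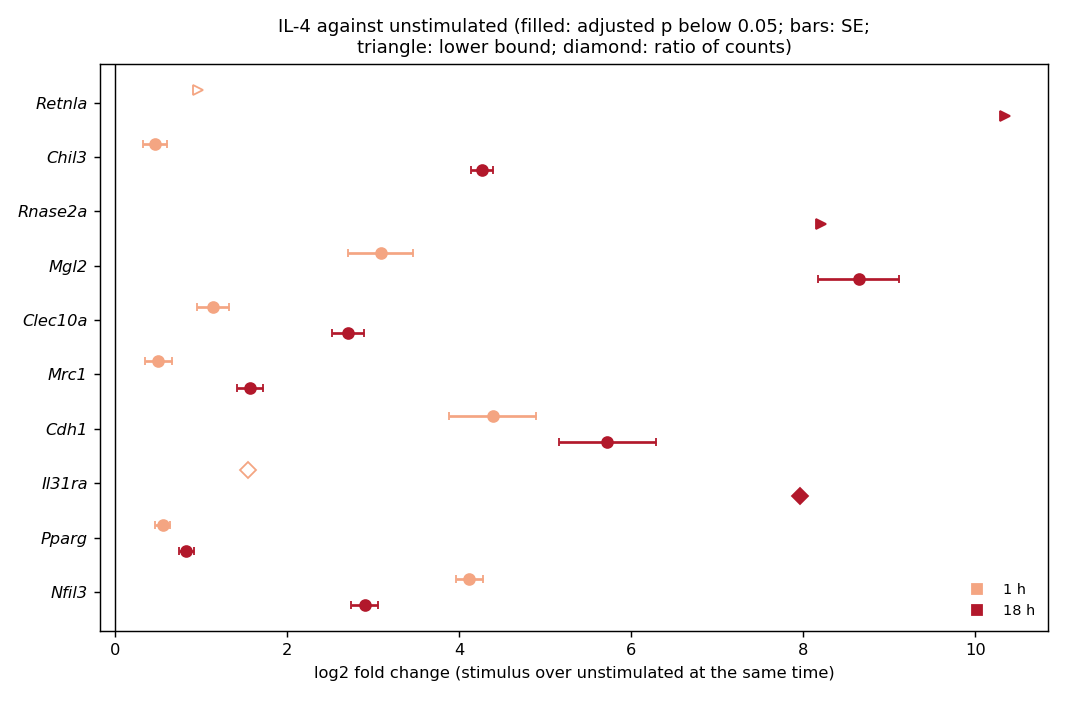
Log2 fold change of IL-4 over unstimulated cells at 1 h and 18 h for the 10 genes, with bars for SE; filled symbols have an adjusted p below 0.05, triangles are lower bounds and diamonds are ratios of counts. Nfil3 is higher at 1 h (4.12) than at 18 h (2.90), while Mgl2 goes the other way (8.65 at 18 h), and Rnase2a has no point at 1 h because it had no reads.

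Set side by side, the 10 genes differed in how much of their 18 h level was present at 1 h. In the direct comparison of IL-4 at 18 h with 1 h, 8 were higher, 1 lower and 1 not called, where 41.1% of all genes were called. The interaction, which subtracts the same change in unstimulated cells, was called for 5 of the 10, with 21.5% of all genes called: Chil3 (3.79 ± 0.19), Mgl2 (5.56 ± 0.61), Clec10a (1.56 ± 0.26) and Mrc1 (1.07 ± 0.22) grew and Nfil3 shrank. The Mgl2 value is a description, since the filter kept this gene through IL-4 groups alone. For Retnla and Rnase2a the edgeR interaction gave no information, since unstimulated cells had no counts at either time. Il31ra missed the threshold (edgeR adjusted p = 0.0548). DESeq2 and limma-voom called these 3 as well. The filter kept all 3 through IL-4 groups alone and unstimulated cells had few or no reads of them, so these calls are descriptions too. In unstimulated cells none of the 10 was called between 18 h and 1 h, where 12% of all genes were, although 2 (Mrc1 and Pparg) had an unadjusted p below 0.05. DESeq2 and limma-voom gave no call there either, but Mrc1 was called lower at 18 h with no filter on low counts (-0.33, edgeR adjusted p = 0.000835) and with the compared groups alone (-0.32, edgeR adjusted p = 0.00564).

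Levels can be compared between genes only per length of transcript. Per kilobase of exon at 18 h, Chil3 (361 ± 80.4 CPM per kb, SD, n = 3) and Retnla (341 ± 101) were the highest of the 10 with IL-4, followed by Mrc1 (155 ± 26.1), Mgl2 (114 ± 12.8) and Rnase2a (66.6 ± 13.5). Pparg (29.4 ± 2.34), Nfil3 (29.3 ± 2.29) and Clec10a (17.5 ± 2.59) came next, and Cdh1 (4.48 ± 0.44) and Il31ra (2.37 ± 0.63) were lowest. The leading pair overlapped, as did Pparg and Nfil3, so neither order is beyond the spread of the libraries. In unstimulated cells the order was different, with Mrc1 at 52.3, Chil3 at 18.8 and Pparg at 16.6 CPM per kb and no other gene of the 10 above 3.92.

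**Figure D3:**
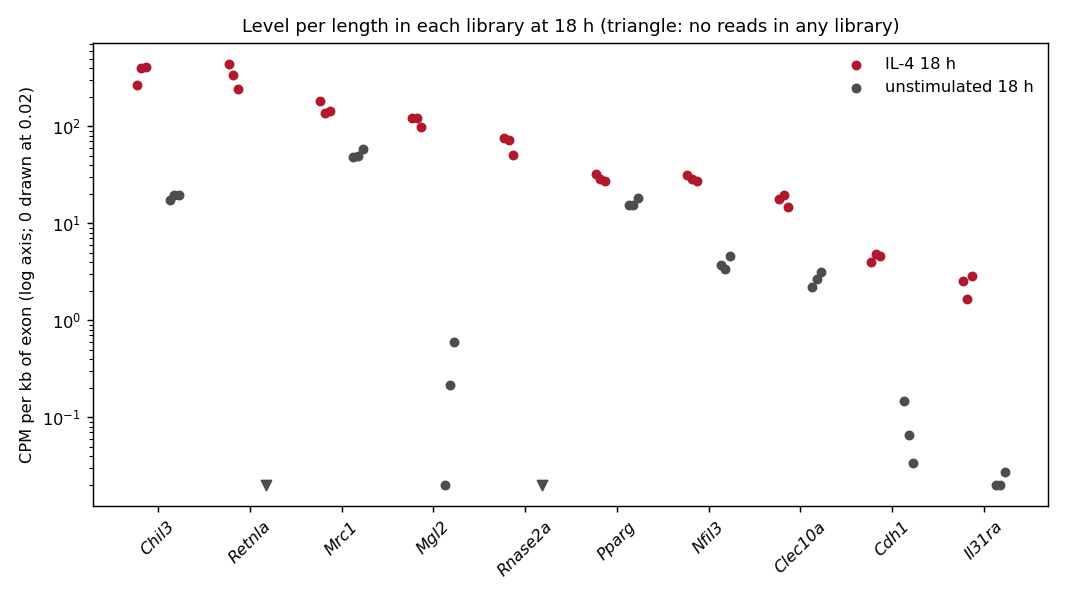
Level per kilobase of exon on a log axis in each library at 18 h, IL-4 left and unstimulated right for each gene; values of 0 are drawn at 0.02 and a triangle stands for a gene with no reads in the group. Retnla is next to Chil3 at the top with IL-4 and without reads in unstimulated cells.

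LPS and LPS with IFNg were compared with the same unstimulated libraries to ask what inflammatory stimuli do to genes of the IL-4 state. At 18 h 1 of the 10 was higher and 4 were lower with LPS and IFNg, where 36.1% of all genes were higher, 36.1% lower and 72.2% called in all. With LPS the count was the same, where 31.8% of all genes were higher, 31.4% lower and 63.1% called in all. The even split over all genes depends on TMM: scaled by library size alone, 2476 genes were higher and 7613 lower with LPS and IFNg and 2082 higher and 6971 lower with LPS, with the counts among the 10 unchanged. Under both stimuli Nfil3 was higher and Chil3, Clec10a, Mrc1 and Pparg were lower, while the 5 genes that were low outside the IL-4 groups left little room for a fall. The share of the 10 genes called was thus no higher than that of all genes. At 1 h Pparg and Nfil3 were higher and none was lower with LPS and IFNg (29.4% of all genes called) and with LPS (22.2%). The response changed between the times for 4 of the 10 under LPS with IFNg, all downward (64% of all genes called), and for 4 under LPS, 1 upward and 3 downward (54.2%).

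Mrc1 had 19.2, 17.4 and 19.1 CPM with LPS and IFNg at 18 h and 50.2, 34.6 and 87.0 CPM with LPS, against 306, 316 and 376 CPM in unstimulated libraries. The groups formed 3 separate ranges. The log2 fold change was -4.16 ± 0.21 with LPS and IFNg (edgeR adjusted p = 2.94e-17) and -2.53 ± 0.18 with LPS (edgeR adjusted p = 2.55e-13), and the direct difference between these stimuli was -1.63 ± 0.22 (edgeR adjusted p = 3.65e-07). At 1 h neither stimulus moved the gene past the threshold (0.35 ± 0.16 and 0.02 ± 0.16, edgeR adjusted p = 0.0959 and 0.965). The LPS and IFNg libraries at 1 h held 461, 550 and 593 CPM, all above the unstimulated ones (411 to 424 CPM). Mrc1 was called higher there with no filter on low counts (0.35, edgeR adjusted p = 9.32e-05) and with the compared groups alone (0.33, edgeR adjusted p = 0.0035). A replicate block called it too (0.34, edgeR adjusted p = 0.0411).

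For Chil3 the inflammatory stimuli differed from each other. With LPS and IFNg at 18 h it had 4.19, 7.39 and 7.56 CPM, with LPS 23.96, 24.8 and 21.5 CPM, against 28.2, 31.9 and 31.9 CPM in unstimulated libraries. It fell by 2.29 on the log2 scale with LPS and IFNg (SE 0.21, edgeR adjusted p = 1.19e-11) and lay 1.90 lower there than with LPS alone (-1.90 ± 0.22, edgeR adjusted p = 7.64e-09). The LPS libraries were only just below the unstimulated ones (-0.39 ± 0.16, edgeR adjusted p = 0.0292), and this call was lost without LPS replicate 1 (-0.41, adjusted p = 0.0528) or 3 (-0.33, adjusted p = 0.106) or unstimulated replicate 2 (-0.36, adjusted p = 0.0783) or 3 (-0.36, adjusted p = 0.0772).

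Clec10a fell to 0.62, 0.57 and 1.13 CPM with LPS and IFNg at 18 h and to 0.53, 0.83 and 1.51 CPM with LPS, against 6.43, 7.74 and 9.24 CPM in unstimulated libraries. Both stimulated groups were wholly below the unstimulated one (-3.32 ± 0.51 and -3.01 ± 0.48, edgeR adjusted p = 7.55e-09 and 4.56e-08). They overlapped each other, and the difference between them was -0.31 ± 0.66 (edgeR adjusted p = 0.729), an estimate too wide to show that they act alike.

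Pparg turned from a rise to a fall between the times. At 1 h it had 83.2, 76.4 and 82.1 CPM with LPS and IFNg and 71.3, 71.8 and 76.2 CPM with LPS, against 54.9, 56.5 and 57.2 CPM without stimulus (0.52 ± 0.09 and 0.38 ± 0.09, edgeR adjusted p = 1.9e-05 and 0.00182). IL-4 at 1 h differed from LPS with IFNg by 0.03 ± 0.08 (edgeR adjusted p = 0.829). Scaled by library size alone this difference was called (0.30, edgeR adjusted p = 0.00343), and the LPS call was lost (0.19, edgeR adjusted p = 0.0947). At 18 h Pparg had 5.12, 4.17 and 5.67 CPM with LPS and IFNg and 8.70, 6.87 and 7.55 CPM with LPS, against 46.2, 46.2 and 54.3 CPM without. Every stimulated library lay far below the unstimulated ones (-3.29 ± 0.16 and -2.65 ± 0.14, edgeR adjusted p = 3.34e-19 and 1.83e-17). The interaction with time was -3.81 ± 0.18 for LPS with IFNg (edgeR adjusted p = 5.99e-18) and -3.03 ± 0.17 for LPS (edgeR adjusted p = 6.1e-16).

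Nfil3 was the exception among the 10, being higher with all stimuli at both times. At 1 h it had 139, 127 and 127 CPM with LPS and IFNg and 15.2, 12.6 and 16.7 CPM with LPS, against 6.63, 6.02 and 10.7 CPM in unstimulated libraries. The libraries with LPS and IFNg were thus in the range of the IL-4 libraries of the same time, while LPS alone left the gene just above its resting range. Whether IFNg or a different LPS dose made this difference cannot be told apart. LPS with IFNg exceeded LPS by 3.15 ± 0.15 (edgeR adjusted p = 1.46e-17), and IL-4 differed from LPS with IFNg by 0.01 ± 0.10 (edgeR adjusted p = 0.978; 0.28, adjusted p = 0.0192, with scaling by library size). At 18 h it had 106, 99.1 and 110 CPM with LPS and IFNg, 33.6, 46.4 and 37.0 CPM with LPS and 64.5, 57.9 and 55.7 CPM with IL-4, without overlap between any of these groups. LPS with IFNg exceeded LPS by 1.44 ± 0.11 (edgeR adjusted p = 1.05e-11), and IL-4 lay below LPS with IFNg by a log2 difference of -0.82 ± 0.11 (edgeR adjusted p = 4.55e-08).

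**Figure D4:**
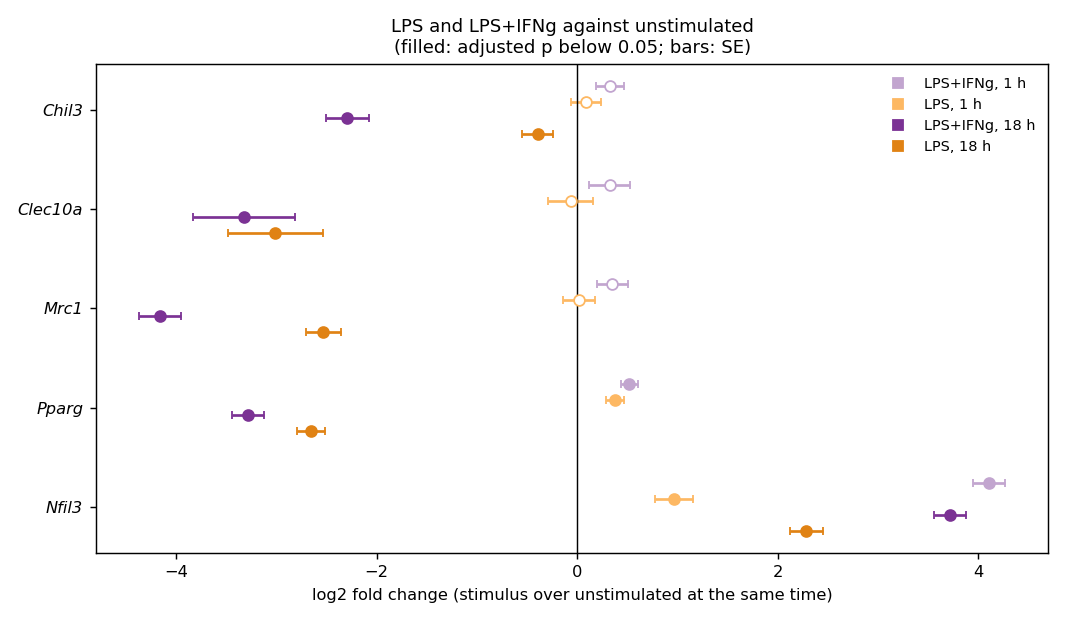
Log2 fold change of LPS with IFNg and of LPS over unstimulated cells at 1 h and 18 h for the 5 genes that passed the low-count filter outside the IL-4 groups as well; bars are SE and filled points have an adjusted p below 0.05. Chil3, Clec10a, Mrc1 and Pparg are left of 0 at 18 h, while Nfil3 stays right of 0 for both stimuli at both times.

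Retnla, Rnase2a, Mgl2, Cdh1 and Il31ra stayed low under both inflammatory stimuli. No library with LPS or with LPS and IFNg held more than 1.12 CPM of Mgl2, and Cdh1 had 2 counts over the 3 libraries of each of these groups at 18 h, against 7 counts in unstimulated libraries. Set directly against LPS with IFNg at 18 h, IL-4 gave 9 higher genes and 1 lower, Nfil3. Of 12765 genes tested, 4754 were higher there (73.9% called in either direction). Against LPS at 18 h IL-4 gave 10 higher, where 4198 of all genes were higher (65% called in either direction). These counts include the 5 genes that the filter kept through IL-4 groups alone, so they are descriptions. At 1 h 3 genes were higher with IL-4 than with LPS and IFNg (Mgl2, Clec10a and Cdh1), where 1893 of all genes were higher (30.4% called in either direction). Against LPS 5 were higher (these 3 with Mrc1 and Nfil3), where 1545 of all genes were higher (23.8% called in either direction). The filter kept Mgl2 and Cdh1 through IL-4 groups alone, so these counts are descriptions too. The Mrc1 call against LPS (0.48 ± 0.16, edgeR adjusted p = 0.0224) was lost without LPS replicate 1 (0.44, adjusted p = 0.0957) or IL-4 replicate 3 (0.37, adjusted p = 0.132) and with DESeq2 (0.47, DESeq2 adjusted p = 0.128). Chil3 missed the threshold against LPS (0.38, edgeR adjusted p = 0.0525) and passed it with scaling by library size (0.58, adjusted p = 0.00196), with no filter (0.40, adjusted p = 0.00283) and with the compared groups alone (0.39, adjusted p = 0.00502). Between LPS with IFNg and LPS, 1 was higher at 1 h (Nfil3; 11.8% of all genes called), and at 18 h 1 was higher and 3 were lower (47.4%).

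The receptor pathway itself was measured on lists drawn from the known biology of IL-4. These lists were chosen with earlier results of these data known, so their counts are descriptions. Of 11 tested receptor and signalling genes 2 rose and 5 fell with IL-4 at 18 h (39.2% of all genes called), led by Il13ra1, a chain of the type II receptor (-1.12), Jak2 (0.94) and Irs2, an adaptor of the receptor (0.80). Il4ra, the IL-4 receptor alpha chain, averaged 50.2 CPM with IL-4 and 77.8 CPM without at 18 h (-0.63 ± 0.10, edgeR adjusted p = 1.58e-05) and was not called at 1 h (-0.16, adjusted p = 0.551). Inflammatory stimuli moved it the other way: it averaged 926 CPM with LPS and IFNg (3.57 ± 0.10) and 1131 CPM with LPS at 18 h (3.86 ± 0.10), and 10 and 9 of the 11 genes were higher there and none was lower (36.1% and 31.8% of all genes higher). Stat6 was slightly lower with IL-4 at 18 h (-0.24 ± 0.07, edgeR adjusted p = 0.00502). The feedback inhibitors, which act on the kinases and receptor, rose within 1 h. All 4 were higher at 1 h of IL-4 (3.22% of all genes higher), Socs1 (5.42), Cish (4.96) and Socs2 (3.88) ahead. At 18 h 3 were higher (19% of all genes higher), Cish (6.33 ± 0.67), Socs1 (5.85 ± 0.41) and Socs2 (5.48 ± 0.44). The Socs1 level itself was lower at the later time, averaging 40.4 CPM at 18 h of IL-4 and 158 CPM at 1 h (-1.96 ± 0.10, edgeR adjusted p = 2.09e-15), with 0.684 and 3.63 CPM in unstimulated cells at 18 h and 1 h. The inhibitors also rose with inflammatory stimuli. With LPS and IFNg 3 of the 4 rose at 1 h, where 1872 of 12765 genes were higher (29.4% called in either direction). At 18 h 3 rose, where 36.1% of all genes were higher (72.2% called in either direction). With LPS 3 rose at 1 h, where 1376 of all genes were higher (22.2% called in either direction). At 18 h all 4 rose, where 31.8% of all genes were higher (63.1% called in either direction).

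Other genes of the IL-4 programme were measured on a list of further effectors and a list of transcription regulators. Both were also chosen with earlier results of these data known. Of 19 tested effector genes, 9 rose and none fell at 1 h of IL-4 (6.49% of all genes called). At 18 h 16 rose and 2 fell (median 3.46, with 39.2% of all genes called). With LPS and IFNg at 18 h 11 of the 19 were higher and 5 lower (72.2% of all genes called). With LPS 9 were higher and 8 lower at that time (63.1% called). Arg1, the arginase of alternative activation, averaged 618 CPM with IL-4 and 0.46 CPM without at 18 h (10.29 ± 0.56, edgeR adjusted p = 1.31e-24), and it already rose at 1 h (5.91 ± 0.69), as did Ch25h, which makes 25-hydroxycholesterol (5.91 ± 0.54). Arg1 also rose with LPS and IFNg (5.28) and with LPS (8.45) at 18 h. On the list of 12 transcription regulators 9 rose and none fell with IL-4 at 18 h (39.2% of all genes called). Irf4 (4.32 ± 0.23), Batf3 (3.35 ± 0.26) and Bhlhe40 (2.60 ± 0.11) were ahead. At 1 h 6 rose and 1 fell (6.49% of all genes called). Irf4, a transcription factor of alternative activation in mice, fell at 18 h with LPS and IFNg (-2.43, edgeR adjusted p = 3.01e-05) and with LPS (-1.88, edgeR adjusted p = 0.000387).

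To find genes of like pattern, the log2 CPM of each of the 10 was correlated with that of 10235 other tested genes over the 24 libraries. These libraries fall into 8 groups and share their scaling, so r is a description without a p-value. Retnla, Rnase2a and Il31ra had the same nearest genes: Scn3a, a sodium channel gene (r = 0.975, 0.983 and 0.963), then Ap2m1, a subunit of a clathrin adaptor, and Tbxas1, thromboxane synthase. Scn3a averaged 14.9 CPM with IL-4 at 18 h and 0.16 CPM or less in every other group. Mgl2 and Cdh1 were closest to Msx3, a homeobox gene (r = 0.968 and 0.952), which averaged 2.64 CPM at 1 h and 12.5 CPM at 18 h of IL-4. Mgl2 came next to Ap2m1 (0.930) and Mettl7a1 (0.928), and Cdh1 to Casp6 (0.941) and Socs2 (0.929). Chil3 was closest to Uqcrc1 (0.962), Stt3b (0.960) and Gfra2 (0.944).

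Genes that fell with LPS had other neighbours. Clec10a was closest to Olfm1 (r = 0.977), Abcd2 (0.969) and Il1rl1, the interleukin 33 receptor gene (0.969), Mrc1 to Daglb (0.987), Actn1 (0.985) and Fam198b (0.984), and Pparg to Slc39a11 (0.991), Ank (0.986) and Eef2 (0.986). Nfil3 stood apart, with Socs1 (r = 0.942), Zbtb5 (0.925) and Atf3 (0.815) as its nearest. Socs1 averaged 158 CPM with IL-4, 255 CPM with LPS and IFNg, 9.78 CPM with LPS and 3.63 CPM without stimulus at 1 h; it was lower with IL-4 than with LPS and IFNg (-0.70 ± 0.09, edgeR adjusted p = 3.01e-07). Among the 10, Retnla and Rnase2a were most alike (0.993), Mrc1 and Pparg followed each other (0.979), and Nfil3 had no r above 0.350 with any of the other 9.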

How the data were processed

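Read counts per Ensembl gene were deposited by the authors, 1 file for each of 24 libraries of mouse bone marrow-derived macrophages. The submitters' processing notes name STAR, featureCounts, DESeq2, deepTools and the build GRCm38, without versions; the annotation release, strand setting and treatment of reads with several alignments are not given in the sources used here. A stranded mRNA library kit was used, per the labels' protocols. Of 43629 identifiers, 42548 matched GENCODE M21. No exon of the 10 genes overlapped an exon of another gene there.

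Groups were taken from stimulus and time in the labels. The filterByExpr function (minimum count 10) kept 12765 genes for testing and dropped 30864. After TMM scaling 1 model of all 24 libraries, with 8 group terms, was fitted in edgeR 4.0.16 (R 4.3.3) (common biological coefficient of variation 0.0736). Two-sided quasi-likelihood tests had Benjamini-Hochberg adjustment over all tested genes, with calls at adjusted p below 0.05. In all 14 pairs of groups were compared and 3 interaction tests were run, each of a response at 18 h against 1 h. The comparison of IL-4 at 18 h with 1 h was added after seeing the data. Against a group without counts the fold is a lower bound at 3 counts over the group, and against 1 to 3 counts a ratio with an exact 95% interval. CPM per kb uses the summed exon length of GENCODE M21. The fit was also run on simulated data, and the outcome is not reported here.

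The members and lists were chosen with earlier results of these data known. The 10 genes are named in all comparisons. Of each list up to 3 called genes with the largest change are named, with Il4ra, Stat6, Arg1, Irf4, Socs1 and Cish open to naming in any case, and the 3 genes with the highest Pearson r are named for each of the 10 (log2 CPM, prior count 2, at least 5 CPM in a group, predicted genes left out).

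Each choice was varied in turn: scaling (median of ratios, library size), tool (DESeq2 1.42.0; voom in limma 3.58.1), dropping the filter, fitting just the groups compared, blocking on replicate number, a threshold of 0.01, and omission of single libraries. Leaving out IL-4 replicate 3 and unstimulated replicate 3 at 18 h together was added after seeing the data.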

Additional observations from a re-analysis of the deposited data

Results flagged for a closer look

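The response to a stimulus, as the log2 fold change over unstimulated cells of the same time, differed between 18 h and 1 h for 6 of the genes in at least 1 stimulus, by the interaction test of edgeR. With IL-4 it was larger at 18 h for Mgl2 (5.56 ± 0.61, edgeR adjusted p = 1.18e-07), Chil3 (3.79 ± 0.19, edgeR adjusted p = 1.05e-14), Clec10a (1.56 ± 0.26, edgeR adjusted p = 4.19e-05) and Mrc1 (1.07 ± 0.22, edgeR adjusted p = 0.000604). It was smaller at 18 h for Nfil3 (-1.22 ± 0.23, edgeR adjusted p = 0.000171). The filter kept Mgl2 through IL-4 groups alone, so the Mgl2 values are a description. They rest on 19 counts in unstimulated cells at 1 h and 11 at 18 h.

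With LPS and IFNg the response at 18 h was below that at 1 h for Mrc1 (-4.51 ± 0.26, edgeR adjusted p = 3.82e-15), Pparg (-3.81 ± 0.18, edgeR adjusted p = 5.99e-18), Clec10a (-3.65 ± 0.55, edgeR adjusted p = 3.45e-08) and Chil3 (-2.62 ± 0.26, edgeR adjusted p = 1.58e-10). The same was seen with LPS for Pparg (-3.03 ± 0.17, edgeR adjusted p = 6.1e-16), Clec10a (-2.95 ± 0.53, edgeR adjusted p = 2.92e-06) and Mrc1 (-2.55 ± 0.24, edgeR adjusted p = 2.35e-10). Nfil3 went the other way with LPS, its response being larger at 18 h (1.32 ± 0.25, edgeR adjusted p = 6.31e-05). With LPS and IFNg its response at 18 h differed from that at 1 h by -0.39 ± 0.22 (edgeR adjusted p = 0.133), a difference that was called without replicate 3 of unstimulated cells at 1 h (-0.65, edgeR adjusted p = 0.0138) and with scaling by library size (-0.66, edgeR adjusted p = 0.009).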

How the results depend on the processing

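Over 170 results of a gene in a comparison and 2524 alternative values, 2451 kept their side of the threshold, 27 lost a call, 46 gained one and 0 called values reversed; values that were not called could change sign. Median-of-ratios scaling changed no call. The counts of genes called, 7 for IL-4 against unstimulated cells at 1 h and 10 at 18 h, ran from 5 to 7 and stayed at 10. Scaling by library size alone moved the median of all genes by -0.53 with LPS and IFNg and -0.42 with LPS at 18 h, by -0.26 and -0.19 at 1 h and by -0.06 with IL-4 at 18 h; it gave 1 call in place of 2 for LPS at 1 h and 7 in place of 3 for IL-4 against LPS with IFNg at 1 h. With no filter or with the compared groups alone, LPS with IFNg at 1 h gave 4 calls in place of 2, LPS with IFNg against LPS at 1 h gave 2 in place of 1, and unstimulated cells at 18 h against 1 h gave 1 in place of 0, Mrc1 (-0.33, adjusted p = 0.000835, and -0.32, adjusted p = 0.00564). DESeq2 and limma-voom each gave 8 calls in place of 5 for the IL-4 interaction. The added genes were Retnla, Rnase2a and Il31ra, which the filter kept through IL-4 groups alone. The causes were not tested.

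Replicate numbers were not taken as pairs in the main model. Same-numbered libraries correlated over 0.1 in 34 of 84 cases (median 0.07, from -0.09 to 0.43). Yet 21 of 24 libraries were closest to their own number, and whether same-numbered libraries shared a batch was not tested. With a replicate block, 4 genes were called for LPS with IFNg at 1 h in place of 2, Chil3 (0.33, adjusted p = 0.0401) and Mrc1 (0.34, adjusted p = 0.0411) being added, Chil3 was called higher with IL-4 than with LPS at 1 h (0.39, adjusted p = 0.0199), and no other count moved by over 1.5 times.

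With single libraries left out, the calls ran from 5 to 6 for IL-4 at 1 h, from 4 to 6 for IL-4 against LPS at 1 h, from 4 to 5 for LPS at 18 h and for the LPS and IFNg interaction, and from 5 to 7 for the IL-4 interaction. They stayed at 2 for LPS and for LPS with IFNg at 1 h, 1 for LPS with IFNg against LPS and 3 for IL-4 against LPS with IFNg at 1 h, 5 for LPS with IFNg and 4 for it against LPS at 18 h, 10 for IL-4 against each other group at 18 h, 9 for IL-4 at 18 h against 1 h, 4 for the LPS interaction and 0 for unstimulated cells at 18 h against 1 h. At this depth a group with 0 to 3 counts allows a bound or a wide ratio. The Mgl2 and Cdh1 folds of IL-4 at 18 h rest on 11 and 7 unstimulated counts and ran from 8.12 to 9.95 and from 5.36 to 6.36.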

Other observations

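Relatives of the 10 genes by family were mostly silent: 8 of 29 passed the filter. With IL-4 at 18 h 3 of these rose and 1 fell (39.2% of all genes called), against 0 called at 1 h (6.49% of all genes). Ear2, another ribonuclease of the eosinophil-associated family, averaged 28.6 CPM with IL-4 and 1.90 CPM without (3.91 ± 0.27, edgeR adjusted p = 7.94e-15). Chil4, which encodes the chitinase-like protein Ym2, had 60 counts with IL-4 and 0 without, in a gene that shares sequence with Chil3. Cd207, the gene of the lectin langerin, averaged 0.907 CPM with IL-4 and 5.77 CPM without (-2.67 ± 0.53, edgeR adjusted p = 3.39e-05), opposite in direction to Mgl2, Clec10a and Mrc1. The resistin relatives of Retnla were low, with 118 reads for Retnlg, 10 for Retn and 1 for Retnlb over the 24 libraries; Retnlg was highest in unstimulated cells at 18 h, at 1.48 CPM.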
